A study of Arabidopsis thaliana with 6 samples.

Results

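The comparison set bin4-1 seedlings of Arabidopsis thaliana against wild-type (WT) seedlings, with 2 expression arrays of each genotype out of 6 arrays in all. All arrays carrying the genotype labels bin4-1 and WT were taken. The remaining 2 arrays are of a second mutant allele, bin4-2, and were used to estimate the spread between arrays and to ask which genes passed in bin4-1 and not in bin4-2. Total RNA of seedlings was hybridised. The labels give no accession, age, growth condition or further allele for any group, and do not say whether both arrays of a genotype had plants of their own. The p-values thus reflect only how far the arrays of a genotype lie apart, which may be a technical spread. Values are log2 intensities after RMA, an array summary that corrects background and equalises the arrays. A gene was called where limma's adjusted p for bin4-1 minus WT was under 0.05, and each change is given on the log2 scale with its standard error (SE).

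BIN4 is a DNA-binding subunit of the plant topoisomerase VI complex, an enzyme that cuts both strands of a duplex and passes another duplex through the gap, which releases the entanglements left by replication. Plants without the complex are known as dwarfs whose cells stop early in endoreduplication, the rounds of genome replication without division that accompany the enlargement of leaf and hypocotyl cells. The series title places these arrays in a study of topoisomerase VI and the spread of heterochromatin.

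BIN4 itself (AT5G24630) was read first. Its dim probe set read 3.78 and 3.93 on the WT arrays and 3.30 and 3.35 on the bin4-1 arrays. The change was -0.53 ± 0.11 (SE, adjusted p = 0.0015), and -0.87 ± 0.11 in bin4-2. Both bin4-1 arrays lay below both WT arrays, as for 42.0% of all genes, and 25.0% of all genes were called lower. These values therefore cannot verify the label. Where that probe set lies relative to the mutation was not analysed here. Of the genes for SPO11-like subunits, relatives of the catalytic subunit of the complex, ATSPO11-1 and SPO11-2 were measured, with changes of 0.06 and -0.26 that did not pass. SPO11-2 passed without WT replicate 2, at -0.41. Median log2 intensities of the 6 arrays lay between 4.70 and 4.75. Arrays of a group correlated at 0.9946 to 0.9972 across probe sets, and WT with bin4-1 arrays at 0.9049 to 0.9102.

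The quartiles of the log2 change over all genes were -0.31 and 0.23. Among the genes called, which leaves out the smallest changes, middling changes were more frequent than small or large ones. Of 13356 genes tested, 6271 were called, a share of 47.0%, with 2933 higher (22.0%) and 3338 lower (25.0%) in bin4-1. Changes of 1.5- to 4-fold, here called middling, made up 3168 of the calls (23.7% of genes tested), 1518 of them higher (11.4%) and 1650 lower (12.4%). Another 2655 called genes changed by under 1.5-fold (19.9%) and 448 by 4-fold or more (3.35%). The balance of directions shifted with size, since 42.7% of the called genes under 1.5-fold were higher, 47.9% of those in the middling band and 62.9% of those at 4-fold or more. Genes that rose 4-fold or more started from a median WT log2 intensity of 4.01, whereas those that fell as far started from 7.08. The median change of all genes was -0.08, the smallest called change was 0.26 in size and the largest that was not called 0.69, a value of the plastid gene rpl20. Among the 4452 dimmest genes, with a midpoint of the group means up to 3.46, 186 were higher and 483 lower, and none reached 4-fold. Among the 4452 brightest 1595 were higher and 1436 lower.

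**Figure D1:**
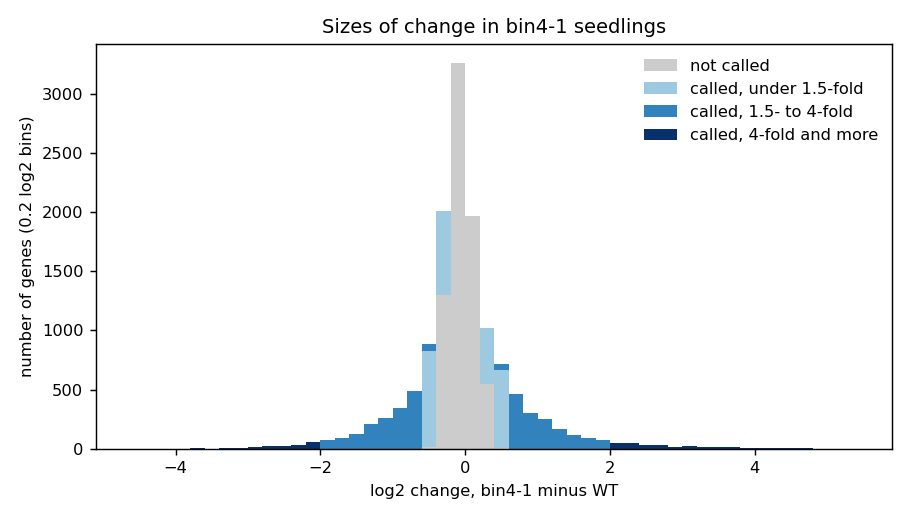
Number of genes (vertical axis) by log2 change of bin4-1 minus WT (horizontal axis) in bins of 0.2, stacked by whether the gene was called by limma and by size of change. The 3168 called genes of 1.5- to 4-fold form both flanks of the central peak, and the 448 at 4-fold and more form the thin tails, with 282 of them on the right.

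Genes were grouped into 70 classes from their symbols or organelle genome, covering 922 genes, and the 989 genes annotated as pseudogenes formed another. The counts and median of a class are to be read against all genes, of which 22.0% were higher, 25.0% lower and 47.0% called, with a median change of -0.08. Only 1557 of the genes tested carry a symbol here, so every statement on a class covers its measured members. A class is described where at least 50% of its members were called in the middling band, or where 75% or more of its called members went one way, so a shared direction among the described classes is in part set by that choice. Of the 71 classes, 34 are described, and 15 others met that rule with fewer than 5 called genes. By the naming rule the leading members given for a class come from the middling band, so a class can hold larger changes. With only genes whose midpoint of the WT and bin4-1 means was at least log2 5, the medians of 3 classes changed sign, as given with them below, and those of 13 others lay over 1.5 times farther from 0. Bulk RNA cannot tell fewer cells of a type from less RNA per cell, which applies to all the values below.

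Nuclear photosynthesis genes fell without exception among those measured. All 23 measured nuclear genes of photosynthesis and thylakoid electron transport were lower, 13 of them in the middling band, 8 by 4-fold or more and 2 by less, with a median change of -1.56. PSBY, a small subunit of photosystem II, gave 11.58 and 11.68 in WT and 9.73 and 9.76 in bin4-1, a fall of 1.89 ± 0.10 (SE). LIL3:1, a light-harvesting-like protein that anchors enzymes of chlorophyll synthesis, gave 9.72 and 9.43 in WT and 7.70 and 7.68 in bin4-1, a change of -1.88 ± 0.12. Both bin4-1 arrays lay below both WT arrays for each of the 23 genes, as they did for 42.0% of all genes tested, with the reverse for 30.1%. At the small end PGRL1B, which acts in cyclic electron flow, and ATPC2, a second gene for the gamma subunit of the chloroplast ATP synthase, changed by -0.39 and -0.28, whereas ATPC1, the main gene for that subunit, changed by -1.78. These genes outside the naming rule were picked after their values were seen.

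The genes that build the photosynthetic complexes went the same way but less evenly. Of 13 genes for photosystem assembly and for import or turnover of plastid proteins, 8 were lower, 0 higher and the median change was -0.65. HCF101, which builds iron-sulphur clusters for photosystem I, gave 8.01 and 8.01 in WT and 6.11 and 6.09 in bin4-1, a change of -1.91 ± 0.11 (SE). LPA19, an assembly factor of photosystem II, fell by 1.62 ± 0.14. The protease subunits CLPP4 and NCLPP7 gave -0.28 and -0.10 and did not pass, as did SECA2 (-0.20) of protein translocation. Of 15 organelle RNA-processing proteins of the pentatricopeptide repeat family, 8 were lower and 2 higher (median -0.39). Their median WT level was 3.91, and among those with a midpoint of at least log2 5, 1 was lower and 0 higher. CRR21 and LPA66, which edit plastid transcripts of a NADH dehydrogenase-like subunit and of a photosystem II subunit, changed by -1.28 ± 0.11 and -1.05 ± 0.11. MEF8S, which acts on mitochondrial transcripts and has a dim probe set (3.06 and 3.08 in WT), rose by 0.73 ± 0.12. Without WT replicate 1 the family had 5 genes called lower and 1 higher, without bin4-1 replicate 1 again 1 was higher, and without bin4-1 replicate 2 the median was -0.23.

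Tetrapyrrole synthesis, which makes chlorophyll and haem from a shared precursor, held 8 lower genes and 1 higher among 12 (median -0.68). CHLM, the methyltransferase of the chlorophyll branch, read 9.65 and 9.54 in WT and 7.87 and 7.92 in bin4-1 and changed by -1.70 ± 0.10 (SE). HEME2, a uroporphyrinogen decarboxylase of the shared trunk, changed by -1.53 ± 0.12. HEMA2 went against the class, with 5.19 and 5.27 in WT and 6.11 and 6.22 in bin4-1, a rise of 0.93 ± 0.12. It encodes an isoform of glutamyl-tRNA reductase, the first committed enzyme, that is known mainly from non-green tissue. The other measured isoform gene, HEMA3, changed by -0.25 and did not pass.

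**Figure D2:**
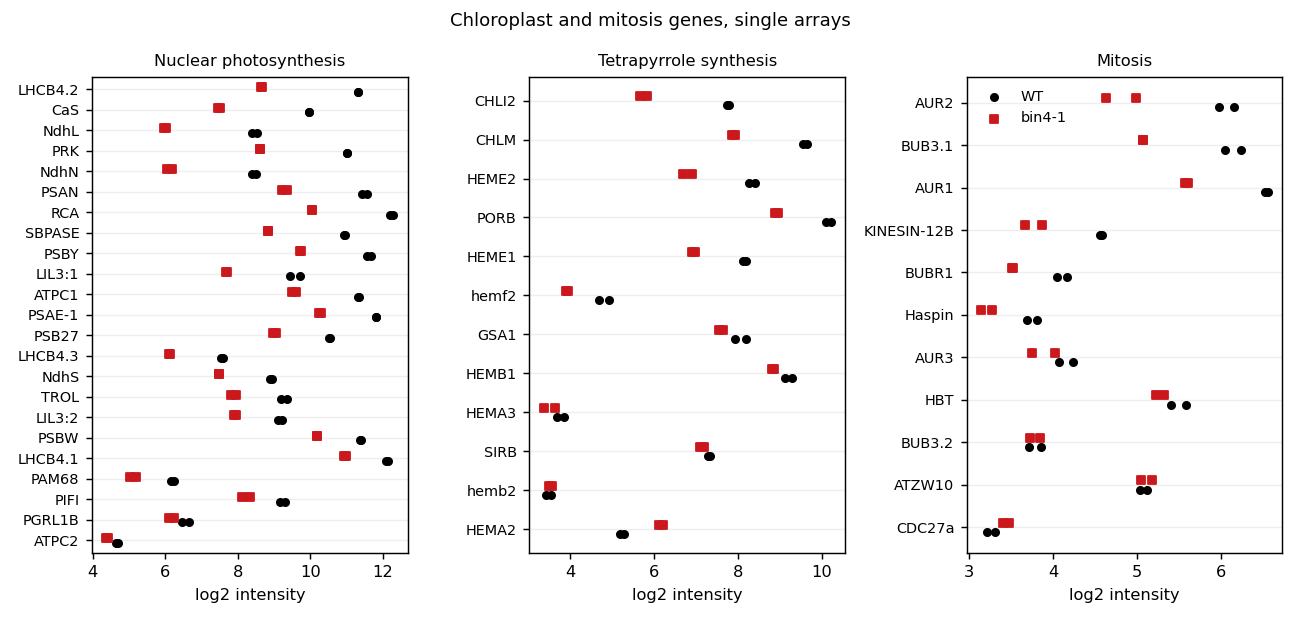
Log2 intensity (horizontal axis) of each measured gene of nuclear photosynthesis, tetrapyrrole synthesis and mitosis, with circles for the 2 WT arrays and squares for the 2 bin4-1 arrays. All 23 photosynthesis genes have their squares to the left of their circles, HEMA2 is the 1 called tetrapyrrole gene with its squares to the right, and 6 of 11 mitosis genes were called lower.

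Plastid-encoded genes were mostly lower, while the mitochondrion-encoded genes that were called were all higher. Of 69 plastid-encoded genes 53 were lower and 0 higher (median -0.57), 32 of them in the middling band and none beyond it. The leading ones were psbC, which encodes a chlorophyll-binding inner antenna of photosystem II (9.12 and 9.01 in WT and 7.66 and 7.47 in bin4-1, a change of -1.50 ± 0.12, SE), and ndhJ of the NADH dehydrogenase-like complex (-1.40 ± 0.14). Of 16 mitochondrion-encoded genes 6 were higher and 0 lower (median 0.20), a share of 37.5% called that is below that of all genes. Their median WT level was 3.67, and dim genes of any kind were called less often than bright ones. The number higher was 3 at an adjusted p under 0.01, and 2 among genes with a midpoint of at least log2 5. nad4L, a dim probe set for a subunit of respiratory complex I, gave 3.24 and 3.25 in WT and 4.17 and 4.03 in bin4-1, a rise of 0.85 ± 0.10, and cox1 of cytochrome oxidase rose by 0.64 ± 0.14. Of the 16 probe sets 5 carry a name suffix used for probes that can detect several transcripts, and without bin4-1 replicate 1 the number called higher was 2.

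Nuclear genes of mitochondrial metabolism were mostly higher where called. The rises were middling for 6 genes of the tricarboxylic acid cycle and the respiratory chain. Of 16 genes of the tricarboxylic acid cycle and the respiratory chain, 9 were higher and 1 lower (median 0.41), or 3 lower without WT replicate 2. IDH-VI, a subunit of the isocitrate dehydrogenase of the cycle, gave 7.14 and 6.99 in WT and 8.28 and 8.15 in bin4-1, a rise of 1.16 ± 0.11 (SE). NDB4, an alternative NADH dehydrogenase on the outer face of the inner membrane, rose by 1.06 ± 0.11, while its relative NDB1 fell by 0.56. Paired isoforms split in the succinate dehydrogenase, where SDH1-1 rose by 0.70 and SDH1-2 gave -0.20 without passing.

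Breakdown of branched-chain amino acids feeds electrons to the same chain through the electron-transfer flavoprotein (ETF). Of 8 genes of this route 6 were higher and 1 lower (median 0.40), with 3 of the rises in the middling band. IVD, isovaleryl-CoA dehydrogenase of leucine breakdown, gave 6.70 and 6.75 in WT and 7.88 and 7.77 in bin4-1, a rise of 1.11 ± 0.10 (SE). MCCA, the next step's carboxylase subunit, rose by 0.95 ± 0.11, against 0.33 for its partner MCCB. ETFALPHA rose by 0.95 and ETFBETA by 0.43. The lower gene was ALDH6B2 of valine breakdown (-0.37), which did not pass without WT replicate 1 or without bin4-1 replicate 2.

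Several classes of protein quality control and turnover held many rises and few falls. Not among them were ubiquitin-conjugating enzymes, with 4 higher and 2 lower of 12 (median 0.02). U-box ligases were also mixed, with 2 higher and 3 lower of 9 (median -0.09). Autophagy carries cytoplasm to the vacuole in vesicles coated with lipid-bound ATG8 proteins. Of 10 ATG genes measured, 8 were higher and 0 lower (median 0.91), 6 of them in the middling band. APG8A, which encodes ATG8A, read 6.70 and 6.73 in WT and 8.64 and 8.62 in bin4-1, a rise of 1.91 ± 0.10 (SE), and ATG8B rose by 1.82 ± 0.11. The family did not move as a block, since ATG8C and ATG8F gave 0.02 and 0.24 and did not pass.

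In the endoplasmic reticulum (ER), where secreted proteins fold, 10 of 14 folding and stress-response genes were higher and 0 lower (median 0.52). Both measured arms of its stress response were among them. BZIP28, a membrane-held transcription factor released by cleavage in the Golgi, read 5.63 and 5.67 in WT and 7.27 and 7.36 in bin4-1, a rise of 1.66 ± 0.10 (SE). BZIP60, whose mRNA is spliced by the ER sensor IRE1, read 6.62 and 6.72 in WT and 7.96 and 7.93 in bin4-1, a rise of 1.28 ± 0.10. Whether the probe set separates spliced from unspliced BZIP60 was not analysed here. BZIP17, a relative of BZIP28, rose by 0.79, the ER chaperone gene ATERDJ3B by 1.13 and UBC32, a ubiquitin-conjugating enzyme of ER-associated degradation, by 0.99. The calreticulin gene CRT1b, already at 9.49 and 9.47 in WT, gave 0.08, and S1P, the protease that cleaves BZIP28, gave 0.22, neither of which passed.

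Some classes of membrane sorting genes gave the same kind of picture, with exceptions. Calls were mixed or few in other trafficking classes. The PRA1 family held 4 higher and 2 lower genes of 11 (median 0.11), and tetraspanins 5 and 2 of 15 (median 0.03). Exocyst subunits held 2 and 0 of 7 (median 0.15). The ESCRT complexes sort ubiquitinated membrane proteins into vacuole-bound vesicles, and 7 of 13 ESCRT and VPS genes were higher and 2 lower (median 0.65), all 9 in the middling band. VPS60.1, of the ESCRT-III type, read 6.38 and 6.40 in WT and 7.69 and 7.60 in bin4-1, a rise of 1.26 ± 0.10 (SE). VPS20.1, of the same type, read 5.68 and 5.86 in WT and 7.17 and 6.87 in bin4-1, a rise of 1.25 ± 0.13. VPS2.2, also of ESCRT-III type, read 6.86 and 6.83 in WT and 6.02 and 5.89 in bin4-1 (-0.89 ± 0.11) and VPS9B fell by 0.69 ± 0.12, while VPS2.1 gave 0.10 and did not pass. Of 8 SNARE and SM genes, which fuse vesicles with membranes, 5 were higher and 1 lower (median 0.42), led by the SM genes SEC1B (1.94 ± 0.14) and KEU (0.73 ± 0.10), the latter needed for fusion at the cell plate. The 1 lower gene, SEC22 (-0.34), did not pass without WT replicate 1, bin4-1 replicate 1 or bin4-1 replicate 2.

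**Figure D3:**
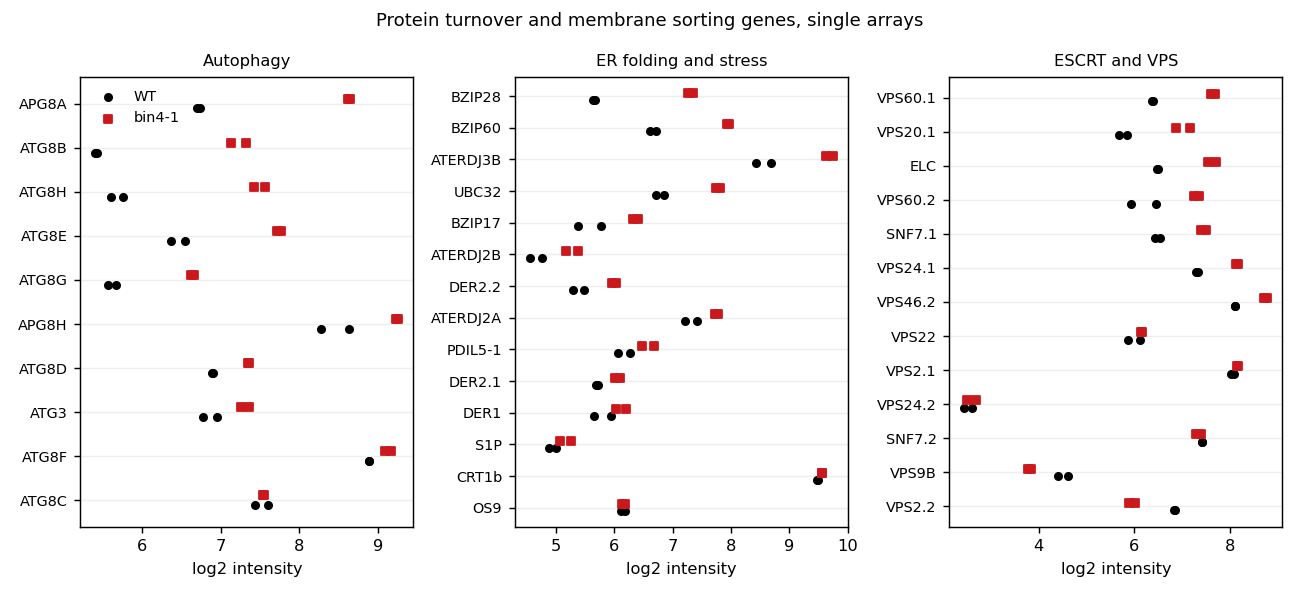
Log2 intensity (horizontal axis) of every measured gene of autophagy, ER folding and stress, and ESCRT or VPS sorting, with circles for the 2 WT arrays and squares for the 2 bin4-1 arrays. In the first 2 panels no gene was called lower, and VPS2.2 and VPS9B are the genes called lower in the third.

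Among deubiquitinases, which take ubiquitin off proteins, 6 of 12 UBP genes were higher and 0 lower (median 0.35), with UBP18 and UBP22 at 0.79 ± 0.10 and 0.68 ± 0.15 (SE). After quantile normalization 1 was lower. Heat-shock proteins and co-chaperones held 6 higher genes and 1 lower among 12 (median 0.36). The nucleotide-exchange co-chaperones of HSP70 parted here, with Fes1A at 5.17 and 5.37 in WT and 6.73 and 6.90 in bin4-1 (1.55 ± 0.11). Fes1B lay at 5.90 and 5.48 in WT and 4.44 and 4.25 in bin4-1 (-1.34 ± 0.15). Hop2, which links HSP70 to HSP90, rose by 0.91 ± 0.10, while Hop1 (0.07) and Hop3 (0.23) did not pass. Subtilases, secreted serine proteases, held 5 higher genes and 1 lower among 10 (median 0.34), or 2 lower without bin4-1 replicate 2. In the middling band ATSBT5.2 rose by 1.21 ± 0.12 and SBT1.3 fell by 0.87 ± 0.11, while 2 other subtilases rose 4-fold or more, by up to 3.96. Serine carboxypeptidase-like genes ran the other way, with 10 of 29 lower and 3 higher (median -0.19, 44.8% called). Among them were SCPL34 (-1.43 ± 0.16), SCPL27 (-1.18 ± 0.11) and the rising scpl16 (1.63 ± 0.13, dim at 2.83 and 2.64 in WT). The number higher was 1 without WT replicate 1 or either bin4-1 replicate and after quantile normalization, and 5 with an intensity trend in the prior variance.

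Families of cell expansion and the wall differed, with expansins and GH9 endoglucanases mostly lower where called and others split. Pectin enzymes held 3 higher and 3 lower genes among 7, and xyloglucan endotransglucosylases, which cut and rejoin wall xyloglucan, 3 and 3 among 10 (median 0.04). Expansins loosen the wall during growth, and 10 of 18 were lower and 1 higher (median -0.47), or 2 higher without WT replicate 1. In the middling band EXLB1, of the expansin-like B group, read 7.16 and 7.18 in WT and 5.81 and 5.85 in bin4-1 (-1.35 ± 0.10, SE), EXPB1 changed by -1.24 ± 0.11 and the expansin-like A gene EXLA1 rose by 0.78 ± 0.10. Its relatives EXLA2 and EXLA3 gave -0.00 and 0.07 without passing. GH9 endoglucanases, enzymes that trim wall glucans, held 6 lower genes and 1 higher among 15 (median -0.17, or -0.27 without bin4-1 replicate 2), near the share of all genes with 46.7% called. GH9C2 changed by -1.61 ± 0.11, GH9B7 by -1.18 ± 0.11 and GH9B17 by 0.76 ± 0.13.

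Polysaccharide synthesis and modification followed with fewer calls. In the TBL family, which acetylates wall polysaccharides, 7 of 22 were lower and 2 higher (40.9% called), led in the middling band by TBL26 (-1.34 ± 0.11, SE) and TBL25 (-1.28 ± 0.10). The family median was -0.05, near that of all genes, or -0.11 without bin4-1 replicate 1 and 0.01 among genes with a midpoint of at least log2 5. The rises were 0 without WT replicate 1 or bin4-1 replicate 2, and 1 without bin4-1 replicate 1 or after quantile normalization. Cellulose-synthase-like genes held 4 lower and 1 higher among 8 (median -0.24, or 0.14 with that midpoint filter). ATCSLC08 and CSLC5, of the group that makes xyloglucan backbones, changed by -0.92 ± 0.15 and -0.71 ± 0.13, and CSLD2, which acts in root hairs, rose by 0.85 ± 0.11. RALF-like peptides, secreted signals that act on wall-sensing receptor kinases, held 5 lower genes and 1 higher among 11 (median -0.18). Of the falls 2 were 4-fold or more, down to -2.79. In the middling band RALFL34 read 9.28 and 9.40 in WT and 7.92 and 7.91 in bin4-1 (-1.43 ± 0.10). RALFL22 changed by -0.93 ± 0.11, and RALFL18 rose by 1.12 ± 0.12.

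Tubulin, actin and IQD genes were mostly lower where called. Of 9 tubulin and actin genes 6 were lower and 1 higher (median -0.59). TUB5, a beta-tubulin, read 8.61 and 8.29 in WT and 6.69 and 6.87 in bin4-1, a change of -1.67 ± 0.13 (SE), and TUB1 changed by -1.13 ± 0.12. The higher gene was TUA1 (0.40), an alpha-tubulin known from pollen, which did not pass without WT replicate 1 or either bin4-1 replicate. IQD proteins, which bind calmodulin and many of which sit on microtubules, held 8 lower and 2 higher genes among 15 (median -0.44), such as IQD30 (-0.84 ± 0.11), IQD28 (-0.79 ± 0.10) and the rising IQD23 (0.69 ± 0.11). The number higher was 1 without WT replicate 1 or without bin4-1 replicate 1. The NET proteins, which bind actin at membranes, held 3 higher and 2 lower of 10, which is near the share called over all genes. NET4B rose by 1.68 ± 0.11 and NET2D by 1.1 ± 0.16, while NET3C and NET1A changed by -0.76 ± 0.13 and -0.66 ± 0.14. Their median of 0.04 was -0.03 without WT replicate 2 or without bin4-1 replicate 1.

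Genes of mitosis and of replication were lower wherever they were called. Of 11 mitosis genes 6 were lower and 0 higher (median -0.54). AUR2, an Aurora kinase of dividing cells, read 5.97 and 6.15 in WT and 4.98 and 4.63 in bin4-1 (-1.25 ± 0.13, SE), and BUB3.1, of the spindle checkpoint family, read 6.24 and 6.04 in WT and 5.07 and 5.06 in bin4-1 (-1.07 ± 0.11). The second BUB3 gene, BUB3.2, gave 0.00, and the HOBBIT gene HBT of the anaphase-promoting complex gave -0.22, neither passing. Of 10 replication and topoisomerase genes 5 were lower and 0 higher (median -0.31), BIN4 among them, or 2 lower without bin4-1 replicate 1. TOPII, topoisomerase II, which like topoisomerase VI passes one duplex through another, read 6.17 and 6.08 in WT and 5.09 and 5.05 in bin4-1, a change of -1.05 ± 0.10. TOP3A, a single-strand topoisomerase, gave -0.27 and did not pass. Of 12 chromatin remodeller genes 5 were higher and 0 lower (median 0.28, 41.7% called), or 3 higher without WT replicate 1 and 2 without bin4-1 replicate 1. The leading one, chr31, also known as CLSY3 of RNA-directed DNA methylation, rose by 1.08 ± 0.14. Its probe set is dim, with 2.71 and 3.12 in WT and 3.96 and 4.02 in bin4-1.

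Markers of cell types were read on the same arrays. All 4 measured of 16 green-tissue markers were lower, but RCA, PRK and SBPASE are also members of the photosynthesis class above and PORB of the tetrapyrrole class, and the log2 of their summed intensity was 13.29 and 13.32 on the WT arrays and 11.22 and 11.24 on the bin4-1 arrays. Both measured of 8 markers of meristems and dividing cells were lower, AUR1 by 0.95 and CLV3, a peptide gene of the shoot meristem, by 0.29. Their summed level was 6.68 and 6.66 in WT and 5.76 and 5.80 in bin4-1, and AUR1 is also a member of the mitosis class above. CLV3 did not pass without WT replicate 2, without either bin4-1 replicate or after quantile normalization. In the stomatal lineage SPCH and MUTE were lower (-1.03 and -0.40) and FMA gave 0.02, for 2 of 3 measured of 7 markers and a summed level of 5.88 and 6.11 in WT and 5.45 and 5.58 in bin4-1. MUTE did not pass without bin4-1 replicate 1. The single measured root marker PYK10 lay at 11.33 and 11.26 in WT and 11.20 and 11.16 in bin4-1 without passing. EXPA18 was lower and EXPA7 not called of 2 root-hair genes (-1.09 and -0.21), which are also members of the expansin class above. Their summed level was 6.31 and 6.41 in WT and 5.61 and 5.67 in bin4-1. Of 2 trichome genes TRY was lower (-1.02) and SIM not called (-0.32), with a summed level of 6.87 and 6.55 in WT and 6.26 and 6.27 in bin4-1. SIM passed with an intensity trend, after quantile normalization, with the midpoint filter and without WT replicate 2, where it was -0.52. The vascular marker CLE41 changed by 0.03 without passing. The seed marker M17 stayed between 2.43 and 2.47 and the flower and pollen marker AT5G45880 between 3.01 and 3.44 on these 4 arrays. The part of cell composition in the class results was not tested.

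Genes of sugar transport and flavonoid synthesis were mostly lower where called. SWEET proteins let sugars down their gradient across membranes. Among 19 SWEET and other sugar transporters 9 were lower and 3 higher (median -0.31), 10 of the 12 in the middling band. SWEET17, a vacuolar fructose carrier, read 5.86 and 6.10 in WT and 4.30 and 3.92 in bin4-1 (-1.87 ± 0.14, SE), and SWEET11, which exports sucrose for phloem loading, read 9.20 and 9.25 in WT and 7.69 and 7.71 in bin4-1 (-1.52 ± 0.10). SFP1, of the monosaccharide transporter family, rose by 1.16 ± 0.10 next to a fall of 0.83 for SFP2. SWEET7, dim at 2.59 and 3.02 in WT, rose by 0.71 ± 0.17. Of 8 flavonoid genes 6 were lower and 0 higher (median -0.94), led by UGT78D1, a flavonol rhamnosyltransferase (-1.98 ± 0.11), and the chalcone-isomerase-like gene CHIL (-1.69 ± 0.10). BAN, of seed-coat tannin synthesis, gave 0.14 without passing.

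In the glucosinolate group BCAT4, the entry enzyme of methionine-derived glucosinolates, changed by -1.87 ± 0.10 (SE) and the related dioxygenase gene AOP1 by -1.26 ± 0.18. GTR2, a glucosinolate importer, rose by 1.26 ± 0.11. The 6 genes held 3 rises and 2 falls (median 0.17), or 1 rise without bin4-1 replicate 2. Glutathione transferases, which conjugate glutathione to reactive compounds, held 6 lower and 2 higher genes among 14 (median -0.24, or -0.12 without WT replicate 1). GSTU25 rose by 1.48 ± 0.11 and GSTU22 by 0.61 ± 0.11, while GSTU23 and GSTU18 changed by -1.01 ± 0.13 and -0.97 ± 0.10. All 7 calmodulin-like genes, which sense calcium, passed, 5 higher and 2 lower (median 0.98). Of the rises 3 were 4-fold or more, up to a log2 change of 3.53. In the middling band CML43 (0.98 ± 0.11) and CML23 (0.70 ± 0.11) rose, and CML42 (-1.14 ± 0.12) and CML30 (-0.61 ± 0.10) fell. Of 8 glutamate receptor-like channel genes 4 were higher and 3 lower, divided by clade. The higher ones were ATGLR1.2, GLR1.4, GLR2.7 and GLR2.8, at 1.60, 0.87, 1.27 and 0.40. The lower ones were GLR3.3, which carries wound signals between leaves, GLR3.5 and GLR3.6, at -0.84, -0.55 and -0.54.

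**Figure D4:**
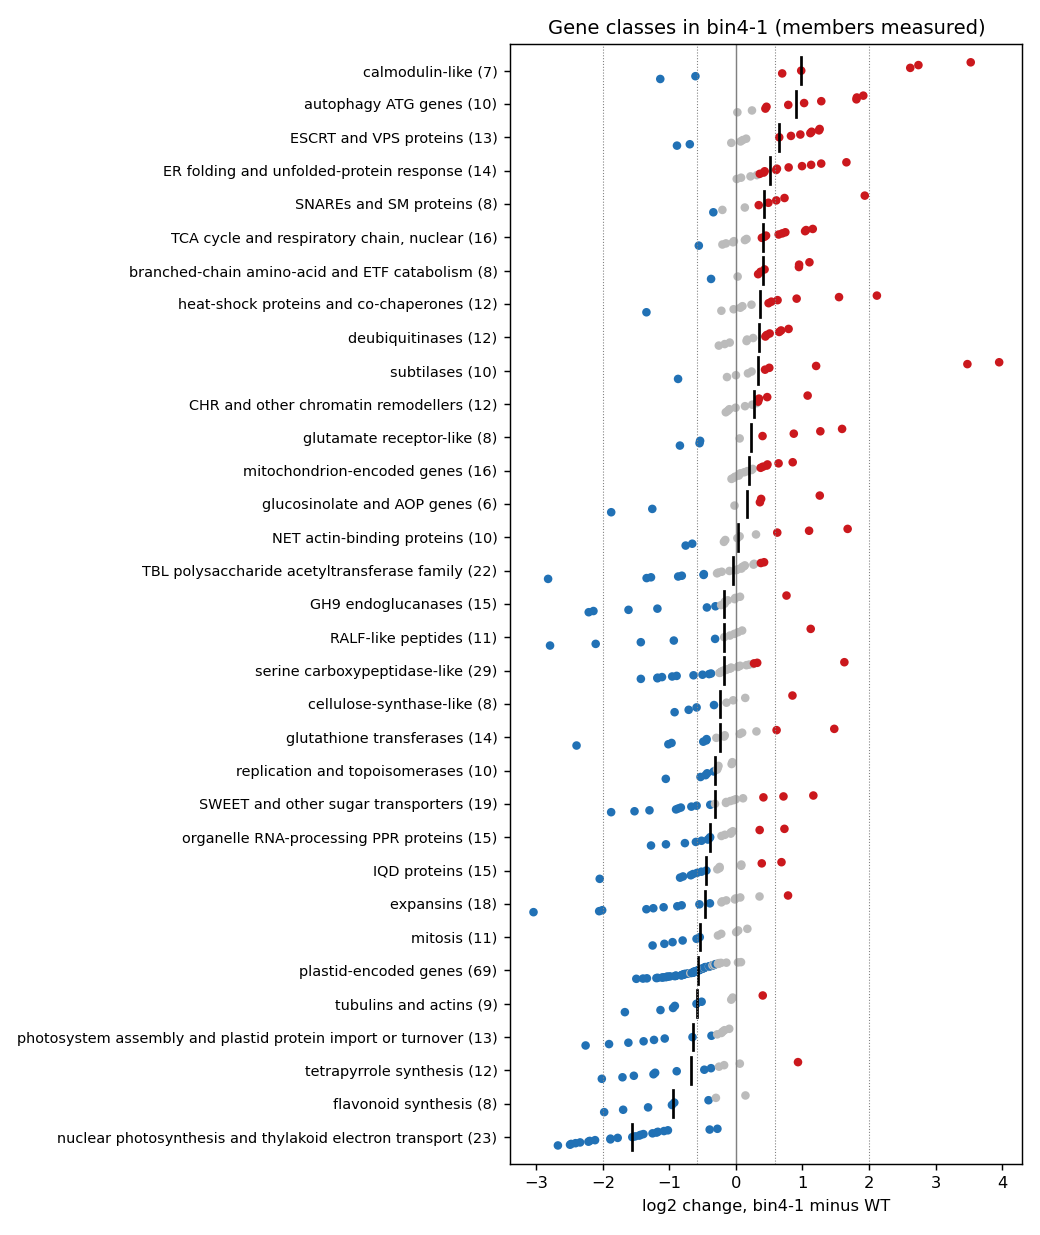
Log2 change of bin4-1 minus WT (horizontal axis) for every measured gene of 33 described classes (pseudogenes left out), sorted by the class median, which is the black bar, with the number of measured genes in brackets. Red points were called higher, blue points lower and grey points not called, and dotted lines mark 1.5-fold and 4-fold. Photosynthesis lies at the low end with a median of -1.56, and the ATG, ESCRT and ER classes are near the high end with medians of 0.91, 0.65 and 0.52.

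Other families split between the directions when calls of all sizes are counted, or held few calls. Of 20 thiol redox and ascorbate-glutathione genes 7 were higher and 10 lower, with changes from -3.70 to 2.97. In the middling band 2 were higher and 7 lower. The largest changes within that band were those of the glutaredoxin GRXC1 (1.84 ± 0.11, SE) and the plastid thioredoxin TRXF2 (-1.66 ± 0.10). UDP-glycosyltransferases split 13 higher to 16 lower among 49, CYP71B cytochromes 4 to 4 among 19 and bZIP factors 9 to 5 among 23. In the middling band alone 9 bZIP factors were higher and 1 lower. CYP71B24 (1.63 ± 0.10) and CYP71B34 (-1.77 ± 0.13) moved in opposite directions. ATP-citrate lyase, which makes cytosolic acetyl-CoA, had its subunit genes ACLA-3 and ACLB-1 at 0.81 ± 0.10 and -0.98 ± 0.11. Calls were fewer than the background of 47.0% among RNA polymerase subunits (1 higher and 0 lower of 12), histones (1 and 0 of 8), DNA repair genes (2 and 3 of 18) and CHX exchangers (1 and 1 of 7). Median WT levels were 3.28 for CHX exchangers and 3.96 for DNA repair genes, and 5.56 for RNA polymerase subunits and 7.86 for histones. Over all genes 186 were higher and 483 lower among the 4452 dimmest, against 1595 and 1436 among the 4452 brightest. For CHX exchangers and DNA repair genes the comparison with 47.0% therefore cannot separate class from level. Of 989 pseudogenes, 191 of them on probe sets with a suffix for shared probes, 23 were higher and 95 lower, which is 11.9% called, with a median of -0.10. Their median WT level was 2.80, and among the 4452 dimmest of all genes 186 were higher and 483 lower, with a median of -0.09. The pseudogene counts depended on single arrays, with 30 lower without bin4-1 replicate 1 and 51 lower and 15 higher without bin4-1 replicate 2. After quantile normalization 46 were lower and the median was -0.03, and it was 0.11 among genes with a midpoint of at least log2 5. On chromosome 2, 18.3% of genes were higher, against 21.5% to 23.5% on the other 4 nuclear chromosomes, a difference that was not tested.

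Few genes changed in bin4-1 alone. A gene was placed there only if called in bin4-1 against WT, not called in bin4-2 against WT, and called in the direct contrast of the alleles. The log2 difference of that contrast does not use the WT arrays, but their spread enters its SE and adjusted p. The bin4-2 contrast called 47.7% of genes and the direct contrast 33 genes (0.247%), or 908 at an unadjusted p under 0.05. Only 3 genes met all 3 conditions (0.0225%), each higher in bin4-1. AT1G43590, annotated as a pseudogene, gave 3.06 and 2.95 in WT, 4.96 and 5.15 in bin4-1 and 2.93 and 2.64 in bin4-2. Its change was 2.05 ± 0.13 in bin4-1 (SE, adjusted p = 8.33e-08) and -0.22 ± 0.13 in bin4-2, and the alleles differed by -2.27 ± 0.13 (bin4-2 minus bin4-1, adjusted p = 1.5e-05). The WT and bin4-2 arrays lay near the floor of the array, whose 5th percentile in WT was 2.63, and the bin4-1 arrays stood clear of both.

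The other two are protein-coding genes that carry no symbol in the tables used here. AT5G40020 read 5.45 and 5.41 in WT, 6.16 and 6.14 in bin4-1 and 5.39 and 5.54 in bin4-2, with a rise of 0.72 ± 0.10 (SE) in bin4-1 and an allele difference of -0.68 ± 0.10 (adjusted p = 0.0208). AT5G19110 read 4.27 and 4.21 in WT, 4.98 and 4.78 in bin4-1 and 3.97 and 4.10 in bin4-2, with a rise of 0.64 ± 0.11 and an allele difference of -0.84 ± 0.11 (adjusted p = 0.00941). For both, the bin4-1 arrays lay above the other 4, as for 1153 of all genes tested. The allele difference of AT5G40020 did not pass when any 1 of the 4 mutant arrays was left out, with values of -0.61 to -0.75, and that of AT5G19110 did not pass without bin4-1 replicate 1, bin4-2 replicate 1 or bin4-2 replicate 2, with values of -0.75 to -0.91. The number of genes in bin4-1 alone was 1 without bin4-1 replicate 1 or bin4-2 replicate 1, 6 and 5 without WT replicate 1 and 2, and 12 with an intensity trend in the prior variance. It was 5 among genes with a midpoint of at least log2 5 and 7 over all probe sets.

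A longer list of 692 genes (5.18%) passed in bin4-1 and not in bin4-2, which is no test of a difference. It held 326 higher and 366 lower genes, and 669 of them changed by under 1.5-fold, 22 by 1.5- to 4-fold and 1 by more. In 300 of the 692 (43.4%) the adjusted p for bin4-2 lay between 0.05 and 0.1, and the median size of change was 0.37 in bin4-1 and 0.24 in bin4-2. The length of the list turned on single arrays, with 302 without bin4-1 replicate 1, 331 without bin4-1 replicate 2, 1171 without bin4-2 replicate 1 and 1347 without bin4-2 replicate 2. Among plastid-encoded genes 8 were in it, all lower, among them matK, petG and psbI, and among mitochondrion-encoded genes 3, all higher, nad5, nad6 and nad9.

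Ranked by the distance between the alleles, the rising genes of the longer list besides the 3 above were AT5G05880, AT3G27400 and AT1G05280, with changes of 0.55, 0.65 and 0.35 in bin4-1 and -0.13, -0.00 and -0.23 in bin4-2. The falling ones were led by HYH, a bZIP factor and partner of the light-signalling factor HY5. HYH read 5.92 and 5.63 in WT, 5.29 and 5.22 in bin4-1 and 5.92 and 5.92 in bin4-2. Its change was -0.52 ± 0.12 (SE) in bin4-1 and 0.14 ± 0.12 in bin4-2, with an allele difference at adjusted p = 0.0509. The cytochrome gene CYP71B26 gave -0.40 in bin4-1 and 0.06 in bin4-2. AT3G19030, AT2G01300, AT4G00670 and AT5G24450 gave -0.75, -0.58, -0.48 and -0.53 in bin4-1, and -0.25, -0.11, -0.03 and -0.12 in bin4-2. None of these 9 passed the contrast between the alleles. In bin4-1 against WT, AT1G05280 did not pass without WT replicate 2, without either bin4-1 replicate or with the replicate block, CYP71B26 without WT replicate 2 or bin4-1 replicate 1, and AT5G24450 without bin4-1 replicate 2.

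**Figure D5:**
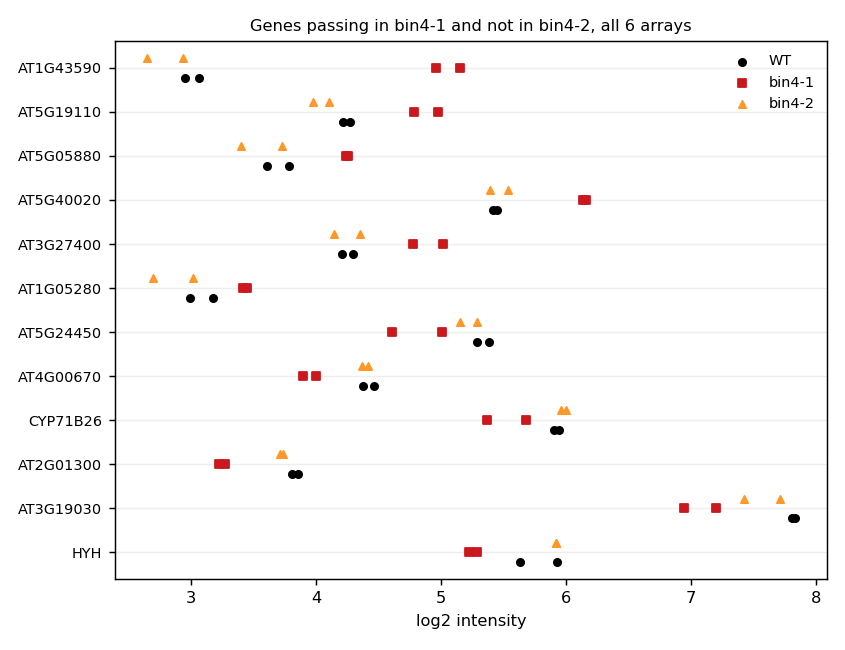
Log2 intensity (horizontal axis) on all 6 arrays of the 12 genes named from those passing in bin4-1 and not in bin4-2, with circles for WT, squares for bin4-1 and triangles for bin4-2, 2 arrays each. The genes were chosen so that the bin4-1 squares lie beyond all 4 other arrays, as they did above for 1153 and below for 1326 of the 13356 genes, and AT1G43590 has the widest gap, with a difference of -2.27 between the alleles.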

How the data were processed

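Total RNA of seedlings of 3 genotypes was hybridised to 6 Affymetrix arrays, 2 per genotype, after biotin labelling by the manufacturer's protocol, per the labels. The deposited values are linear intensities that the authors computed with RMA, per the submitters' processing notes, with version and settings not given in the sources used here. They were turned into log2 values before any other step. For arrays, the number of arrays limits the precision.

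Of 22810 probe sets, 64 controls, 503 naming several genes and 8730 unnamed here were left out of the main fit. Of the other 13513, 13436 matched the RefSeq table (TAIR10.1) used for names. For 146 genes with several probe sets the one with the highest mean was kept, which gave 13356 genes. limma 3.58.1 in R 4.3.3 was fitted to all 6 arrays with 3 group means (lmFit and eBayes, 3 residual and 8.25 prior degrees of freedom), and tested on simulated data first. Two-sided p-values were adjusted over all genes by the Benjamini-Hochberg method. Python 3.11.15 was used for summaries (pandas 2.3.3 and numpy 2.4.6) and figures (matplotlib 3.10.9).

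The members, the gene classes, the marker lists and the rule for naming genes were chosen with earlier results of these data known. The classes were built by symbol, a few symbols that proved to be other genes were taken out, and the minimum of 5 called genes was set after the values were seen. Named in each described class are up to 2 rises and 2 falls of 1.5- to 4-fold, the largest with both bin4-1 arrays beyond both WT arrays. Named too are every gene changed in bin4-1 alone, and up to 6 rises and 6 falls passing in bin4-1 and not in bin4-2. Those rises and falls were taken by the distance between alleles, among genes with both bin4-1 arrays beyond both WT and both bin4-2 arrays. Members named in the text beyond these were chosen after their values were seen. Of markers, counts, ranges and examples are given. Alternatives were the 4 arrays alone, an intensity trend, quantile normalization, median centring, a midpoint filter, all probe sets, a replicate block, a stricter threshold and leaving out each array.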

Additional observations from a re-analysis of the deposited data

Results flagged for a closer look

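Of the 33 genes called in the direct contrast between the alleles, 3 were also called against WT in bin4-1 and not in bin4-2. The pseudogene AT1G43590 differed by -2.27 on the log2 scale (bin4-2 minus bin4-1), with both bin4-1 arrays above the other 4, and the difference passed with each array left out in turn. AT5G19110 differed by -0.84 and AT5G40020 by -0.68, and both were sensitive to single arrays as given above.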

How the results depend on the processing

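Leaving out 1 array at a time gave 4879 to 6172 genes called in bin4-1 against WT, with 2388 to 2893 higher and 2491 to 3279 lower. The middling band then held 3147 to 3245 genes, with 1501 to 1564 higher and 1646 to 1722 lower. Between the alleles 7 to 51 genes differed, 302 to 1347 passed in bin4-1 and not in bin4-2, and 1 to 6 changed in bin4-1 alone. Where this left 1 array in a group, that array was assumed to vary like the other groups. With an intensity trend 127 genes differed between the alleles and 12 changed in bin4-1 alone. The midpoint filter at log2 5 tests fewer genes and gave 3915 called, 1885 of them lower, and 2023 in the band (990 higher and 1033 lower), with 56 differing between alleles, 265 passing in bin4-1 and not in bin4-2, and 5 in bin4-1 alone. All probe sets gave 11846 called (5637 higher and 6209 lower), 6123 in the band (2881 and 3242), 55 differing between alleles, 1169 passing in bin4-1 and not in bin4-2, and 7 in bin4-1 alone. At an adjusted p under 0.01, 15 genes differed between alleles.

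Class medians changed sign with the midpoint filter for the TBL family (0.0129), cellulose-synthase-like genes (0.14) and pseudogenes (0.11), and for the NET proteins without WT replicate 2 (-0.0329) or bin4-1 replicate 1 (-0.0290). The cause was not tested. The array titles carry a shared suffix, but same-suffix arrays did not deviate together (correlations of -0.0033, 0.0774 and -0.0449). With that suffix as a replicate block 6221 genes were called in bin4-1, 25 differed between alleles, 670 passed in bin4-1 and not in bin4-2, and 3 changed in bin4-1 alone. The 8730 probe sets unnamed here keep every class incomplete. No level of background was set, so how far dim values reflect a transcript was not tested.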
